A study of Homo sapiens with 17 samples.

Results

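HNRNPU was found at the end of a protein-coding gene without POLIIS2P at 432 sites, 6.15% of the 7028 HNRNPU sites that lay at a gene end and a small minority of the 16737 HNRNPU sites on chromosomes 1 to 22. A site was a summit of HNRNPU, the base at which an enriched region peaked, that appeared in both HNRNPU libraries within 250 bp. It was kept when it lay no more than 1000 bp from the start or 3′ end of a RefSeq protein-coding gene and when neither POLIIS2P library of shLUC cells had a summit within 500 bp. The term POLIIS2P-free, used below, refers to these 2 lists and this distance only. In the shHNRNPU#1 library, 29.6% of these sites had a deposited POLIIS2P summit within 500 bp. The remaining 6596 gene-end sites, which had POLIIS2P within 500 bp, are the comparison throughout. Both sets of sites were therefore chosen from the HNRNPU and shLUC POLIIS2P lists themselves, and those values are given below as a description only. The number depended on every library used: it was 845 or 721 when the first or the second POLIIS2P shLUC library was left out, and 1130 or 1200 when the first or the second HNRNPU library was.

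HNRNPU, heterogeneous nuclear ribonucleoprotein U or SAF-A, is an abundant nuclear protein that binds both DNA and nascent RNA and takes part in splicing and in the organisation of transcribed chromatin. RNA polymerase II carries a long C-terminal tail that is phosphorylated at different serines as the enzyme leaves a promoter and moves through a gene, so an antibody to a phosphorylated form reads out where the polymerase is and in which state. H3K27ac is a mark of active promoters and enhancers. H3K4me1 covers enhancers and the flanks of promoters, and is low over the nucleosomes next to the start of a strongly transcribed gene.

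The libraries were CUT&Tag profiles of H1 human pluripotent stem cells, an established line, grown on Matrigel in mTeSR1. CUT&Tag directs a transposase with an antibody, so that DNA near the bound protein is cut and tagged. HNRNPU was profiled in untransfected cells (n = 2). POLIIS2P was profiled in cells given the hairpin shLUC (n = 2) or shHNRNPU#1 (n = 1), and H3K4me1 and H3K27ac in cells given shHNRNPU#1, shHNRNPU#2 or shLUC (n = 2 for each hairpin and antibody). Hairpins were delivered by virus and cells were selected with puromycin. The labels do not spell out the name POLIIS2P, and their list of antibodies, which has HNRNPU and H3K27ac, lacks POLIIS2P and H3K4me1. No HNRNPU library of hairpin-treated cells was analysed here, so the depletion itself was not checked, and the HNRNPU sites are those of untransfected cells while the absence of POLIIS2P is that of shLUC cells. Nothing states that repeats were separate cultures, so the spread between libraries may be technical.

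The 17 deposited lists held 34649 to 214333 summits each, with no read depth, and each summit carried a score on a −log10 scale. For the 4 shLUC histone libraries, the sample title and the peak names inside the file gave opposite antibodies. Their lists also ran with the antibody in the file, since the shLUC lists titled H3K27ac held 179137 and 181357 summits, beside 147145 to 214333 in the 4 shHNRNPU lists of H3K4me1 and 40487 to 85142 in those of H3K27ac. Every antibody-specific comparison with shLUC is therefore given by title and with the 2 names exchanged, and descriptions of single marks rest first on the 4 shHNRNPU libraries of each antibody, which this conflict does not touch. As a check of the cell type, POLIIS2P lay within 1000 bp of 8 of 11 pluripotency genes in both shLUC libraries, but not of POU5F1, SOX2 or LIN28B, and of 5 of 6 mesendoderm, 3 of 5 neural and 1 of 5 fibroblast genes. These counts did not set pluripotency genes apart from mesendoderm genes. None of the 11 pluripotency genes carried a POLIIS2P-free HNRNPU site, against 2.25% of all protein-coding genes. At so low a share, 11 genes are too few for this to be informative.

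The promoters of 5 genes are shown to place the sites on sequence, because their HNRNPU summit fell inside the promoter window of the reference. ARRDC4, CCN2 and WDR6 stand for the strongest HNRNPU summits. CALCRL and ALCAM stand for the highest median histone ranks among sites with a summit in every histone library. Each runs 5′ to 3′ along the gene's own strand, from 250 bases before the annotated start to 20 bases into the transcript, in GRCh38.p14 coordinates (RefSeq). Capitals mark matches, on either strand, to the TATA box (TATAAA), the CCAAT box, the GC box (GGGCGG), the ETS motif (CCGGAAG), the YY1 motif (ATGGCGGC), the cyclic AMP response element (TGACGTCA), the E-box (CACGTG), the short motif ACTACAA, the NRF1 motif or a palindromic CGCG motif, the last of 10 letters, as is that of NRF1.
ARRDC4, chr15:97960453-97960722, plus strand: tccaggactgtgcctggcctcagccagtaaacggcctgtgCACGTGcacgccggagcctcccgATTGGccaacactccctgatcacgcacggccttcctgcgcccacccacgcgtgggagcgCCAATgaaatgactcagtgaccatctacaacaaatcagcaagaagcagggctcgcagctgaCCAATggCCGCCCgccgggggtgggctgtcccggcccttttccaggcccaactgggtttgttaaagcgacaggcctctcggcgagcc
CCN2, chr6:131951353-131951622, minus strand: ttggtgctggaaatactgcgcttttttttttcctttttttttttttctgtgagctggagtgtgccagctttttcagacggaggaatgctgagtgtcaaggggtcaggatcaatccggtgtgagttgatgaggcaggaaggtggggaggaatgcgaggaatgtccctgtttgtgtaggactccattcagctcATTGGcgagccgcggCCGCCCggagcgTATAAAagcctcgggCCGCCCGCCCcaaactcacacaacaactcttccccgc
WDR6, chr3:49007141-49007410, plus strand: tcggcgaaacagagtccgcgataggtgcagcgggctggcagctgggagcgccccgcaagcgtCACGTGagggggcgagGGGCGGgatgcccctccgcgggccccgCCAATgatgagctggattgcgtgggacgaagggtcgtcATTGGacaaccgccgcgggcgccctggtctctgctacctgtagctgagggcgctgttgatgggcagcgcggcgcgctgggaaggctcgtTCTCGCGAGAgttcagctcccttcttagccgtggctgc
CALCRL, chr2:187448233-187448502, minus strand: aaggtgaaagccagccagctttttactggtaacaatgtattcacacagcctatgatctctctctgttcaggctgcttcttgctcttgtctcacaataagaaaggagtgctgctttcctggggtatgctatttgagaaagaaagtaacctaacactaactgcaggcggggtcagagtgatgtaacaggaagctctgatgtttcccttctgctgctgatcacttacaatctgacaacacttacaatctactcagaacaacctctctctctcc
ALCAM, chr3:105366659-105366928, plus strand: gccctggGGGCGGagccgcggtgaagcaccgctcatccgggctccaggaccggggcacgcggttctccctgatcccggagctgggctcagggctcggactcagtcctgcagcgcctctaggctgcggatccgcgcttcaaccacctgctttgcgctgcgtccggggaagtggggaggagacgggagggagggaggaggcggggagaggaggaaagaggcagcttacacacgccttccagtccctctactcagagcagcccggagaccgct
The HNRNPU summit lay 247 bases before the start of ARRDC4, which encodes an arrestin-like protein, 111 before that of CCN2, a secreted matricellular growth factor, and 133 before that of ALCAM, a cell adhesion molecule. It lay 4 bases inside WDR6 and 16 bases inside CALCRL, the calcitonin receptor-like receptor. The CCN2 window held a TATAAA match beginning 32 bases before the start, beside 3 GGGCGG matches and 1 CCAAT match. WDR6 held a match to the palindromic CGCG motif beginning 18 bases before the start, and was the only 1 of the 337 starts beside POLIIS2P-free sites to do so. ARRDC4 and WDR6 each held 1 CACGTG. CALCRL had no match to any of the motifs and an observed over expected CpG ratio of 0.0656 in its full 300-base window, against 0.683 for CCN2 and 0.976 for WDR6.

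The sites were mostly at gene starts, and nearly every site had a gene of its own. Of the 432, 338 were nearest a start, 18 were nearest a 3′ end and 76 were nearest a gene whose strand was not used here. Their 431 nearest genes included 1 gene with 2 sites. The median distance to the gene end was 232.5 bp, with quartiles of 97 and 509 bp, against a median of 146 bp for sites with POLIIS2P, and 51.2% of the sites fell inside the gene body against 40.4%. Only 41 sites (9.49%) had ends of 2 or more protein-coding genes within 1000 bp, against 18.8% of the sites with POLIIS2P, whereas the end of a long noncoding RNA gene lay within that distance at 19.9% and 20.8%.

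Chromosome 4 had the largest proportion of POLIIS2P-free sites, 34 of its 270 gene-end sites (12.6%). The share was lowest on chromosome 21, with 0 of 66 sites, and next on the gene-dense chromosome 19, with 10 of 520 (1.92%).

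HNRNPU summits at these sites were weaker than at sites with POLIIS2P. The score ranged from 1.36 to 48.0 in the first repeat, with a median of 4.62, and from 1.33 to 38.1 in the second, with a median of 4.92, while the medians at sites with POLIIS2P were 9.45 and 9.85. Expressed as a rank within each list, where 100 is the strongest summit, the mean of both repeats had a median of 51.3 (quartiles 36.6 and 67.9) at POLIIS2P-free sites and 80.6 at sites with POLIIS2P. A list of HNRNPU regions deposited for the whole series held 401 of the 432 sites (92.8%) and 97.7% of the sites with POLIIS2P.

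The strongest HNRNPU summit was at MYH10, which encodes nonmuscle myosin heavy chain IIB, with scores of 48.0 and 27.1 at 648 bp before its start. ARRDC4 followed with 26.2 and 38.1. HSP90AB1, the constitutive HSP90 chaperone, had 32.3 and 28.7 at 152 bp inside the gene. EGR1, an immediate-early transcription factor, had 24.0 and 29.8 at 851 bp before its start, and CCN2 had 18.3 and 25.5. These 5 sites ranked between 96.1 and 98.6 of 100 in the HNRNPU lists, so a weak HNRNPU summit was not a property of every POLIIS2P-free site. The next 5 were at WDR6, SMIM29, TBRG1, CALB1 and POLR2J3, with ranks from 95.4 down to 90.9. CALB1 encodes the calcium buffer calbindin and POLR2J3 a subunit-like protein of RNA polymerase II. POLR2J3 has near-identical gene copies, between which reads may be split.

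The distance to POLIIS2P divided the sites into those just beyond the limit and those far from any shLUC POLIIS2P summit. The nearest shLUC POLIIS2P summit lay over 500 and up to 1000 bp away at 99 sites, up to 10000 bp at 95, up to 100000 bp at 127 and over 100000 bp at 111. The median distance was 15173 bp, against 41 bp at the sites with POLIIS2P. Of the 5 strongest sites, MYH10, EGR1, HSP90AB1 and CCN2 had POLIIS2P at 587, 571, 710 and 975 bp, whereas ARRDC4 had none within 686923 bp. At the limit itself, the sites just inside were at XKR5 (505 bp), BMPER (506 bp) and SNX13 (516 bp), and those just outside were at ATRAID (500 bp), CEP170 (498 bp) and PMAIP1 (487 bp). For the distance to the gene end, TMTC2 (994 bp), TLCD1 (993 bp) and CSMD3 (985 bp) were just inside, and TRABD2A (1031 bp), FBN2 (1048 bp) and PLEKHA7 (1049 bp) just outside. For the distance between repeats, FAHD2B (247 bp), NEIL3 (243 bp) and MTF1 (240 bp) were just inside, and SPATA17, HLA-E and GLP1R, each at 255 bp, just outside.

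**Figure D1:**
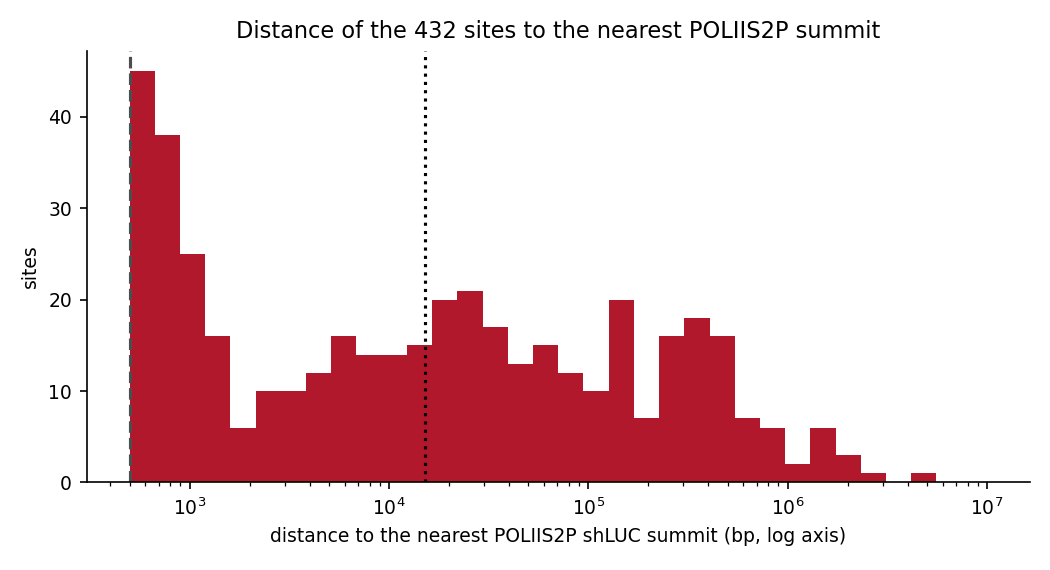
Number of POLIIS2P-free gene-end HNRNPU sites (432 in all) by distance in bp, on a log axis, to the nearest POLIIS2P summit of either shLUC library. The dashed line is the limit of 500 bp that chose the sites and the dotted line their median, 15173 bp. Bars are highest just beyond the limit, and a broad second group extends past 100000 bp.

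H3K27ac was far less frequent at POLIIS2P-free sites than at sites with POLIIS2P. To compare lists of unequal length, a site was counted as marked when 1 of the 20000 strongest summits of a library lay within 500 bp. In the shHNRNPU#1 libraries of H3K27ac, 10.6% and 8.56% of the 432 sites were marked, and in those of shHNRNPU#2 15.05% and 13.4%. The same libraries marked 42.4%, 40.9%, 49.3% and 45.9% of the sites with POLIIS2P. The mean was thus 11.9% ± 2.88 (SD, n = 4) against 44.6% ± 3.75, and the 2 ranges did not overlap. The shLUC libraries titled H3K4me1 gave 10.9% and 14.4% against 47.2% and 53.1%.

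H3K4me1 differed little between the sets. The shHNRNPU#1 libraries of H3K4me1 marked 8.33% and 9.26% of the POLIIS2P-free sites and 11.4% and 11.1% of the sites with POLIIS2P, and the shHNRNPU#2 libraries marked 9.03% and 10.9% against 10.9% and 12.9%. The mean was 9.38% ± 1.08 (SD, n = 4) against 11.6% ± 0.922. The shLUC libraries titled H3K27ac gave 10.2% and 8.33% against 10.7% and 9.76%. POLIIS2P-free sites were marked less often in all 6 of these libraries, by 0.488 to 3.07 percentage points. With all deposited summits of the same libraries, the difference was larger, at -8.54 points (68.6% against 77.2%), with single libraries from -10.3 to -5.62.

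**Figure D2:**
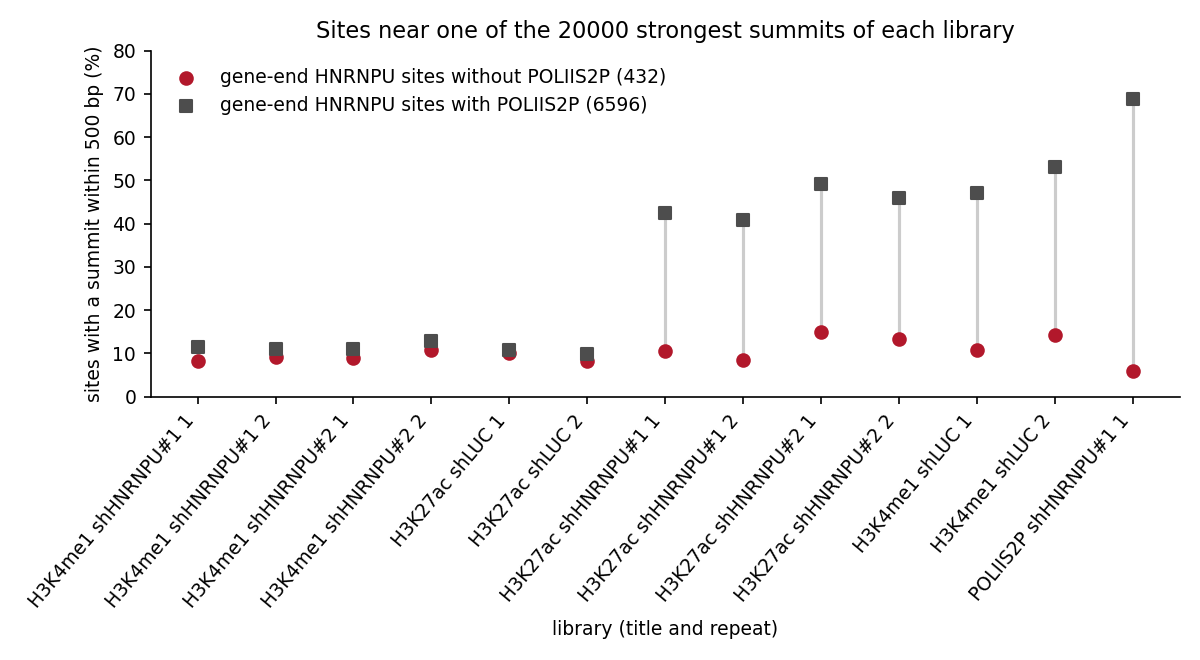
Share of sites, in percent, with 1 of the 20000 strongest summits of a library within 500 bp, for each histone library and for POLIIS2P of shHNRNPU#1, named by title and repeat. Circles are the 432 POLIIS2P-free sites and squares the 6596 sites with POLIIS2P. Circles lie between 8.33% and 15.05% in every histone library, while squares rise above 40% in the shHNRNPU libraries of H3K27ac and in the shLUC libraries titled H3K4me1.

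The differences between the 2 sets of sites were tested over libraries by exact two-sided permutation of signs, for which 6 libraries give 64 assignments and a smallest p of 0.03125. Every library was scored at the same sites, so such a p measures agreement between libraries and not the spread between sites. With the shLUC names exchanged, POLIIS2P-free sites were below sites with POLIIS2P by 34.3 percentage points for H3K27ac (12.2% against 46.4%, lower in 6 of 6 libraries) and by 1.79 points for H3K4me1 (9.34% against 11.1%, lower in 6 of 6). By title, the differences were 22.1 points for H3K27ac and 14.0 points for H3K4me1. For a summit of either histone antibody, in lists joined by hairpin and repeat, the difference was 30.4 points (20.4% against 50.8%). Each of these 5 tests gave the smallest exact permutation p that the design allows, 0.03125, and 0.0688 after Benjamini-Hochberg adjustment over the 11 tests made, so none passed the correction. With so few libraries, no values could have brought an adjusted p under 0.05, so this failure says nothing about the size of the differences.

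The strength of HNRNPU differed between the sets, so the shares were also compared within bins of it. Strength was not matched inside a bin, and the weakest bin spanned ranks up to 60.9. All gene-end sites were split into 4 bins of equal size by HNRNPU rank, which placed 280, 99, 44 and 9 of the POLIIS2P-free sites in the weakest to the strongest bin. In the 4 shHNRNPU libraries of H3K27ac, the share of POLIIS2P-free sites marked was 7.77% ± 1.55, 17.2% ± 3.78, 21.0% ± 10.1 and 38.9% ± 19.2 (SD, n = 4) from the weakest to the strongest bin. Sites with POLIIS2P had 21.2% ± 1.77, 36.2% ± 4.15, 50.2% ± 5.41 and 66.8% ± 3.66. The sets did not overlap in any bin, although the last rests on 9 POLIIS2P-free sites. Averaged over bins with the shLUC names exchanged, the H3K27ac difference was 22.9 percentage points (22.5% against 45.4%), with an exact permutation p of 0.03125.

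H3K4me1 turned in direction under the same split. POLIIS2P-free sites had 6.34% ± 0.736, 11.9% ± 2.90, 21.0% ± 1.14 and 19.4% ± 5.56 (SD, n = 4), and sites with POLIIS2P had 6.53% ± 0.401, 10.4% ± 0.634, 12.3% ± 0.901 and 16.3% ± 2.04. In the third bin, the 44 POLIIS2P-free sites lay above the others in all 4 libraries. Averaged over bins with the shLUC names exchanged, POLIIS2P-free sites were higher by 3.59 points (14.5% against 10.9%), in 6 of 6 libraries, again at the smallest exact permutation p of 0.03125. Each bin counted equally in these averages, so the 9 POLIIS2P-free sites of the strongest bin weighed as much as the 280 of the weakest. The p-values of these averages were not part of the adjustment. They measure agreement between libraries scored at the same sites, and not the spread between sites. The deficit in H3K27ac was thus kept in each bin, whereas that in H3K4me1 was seen only in the weakest bin of the shHNRNPU libraries, by 0.194 points.

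**Figure D3:**
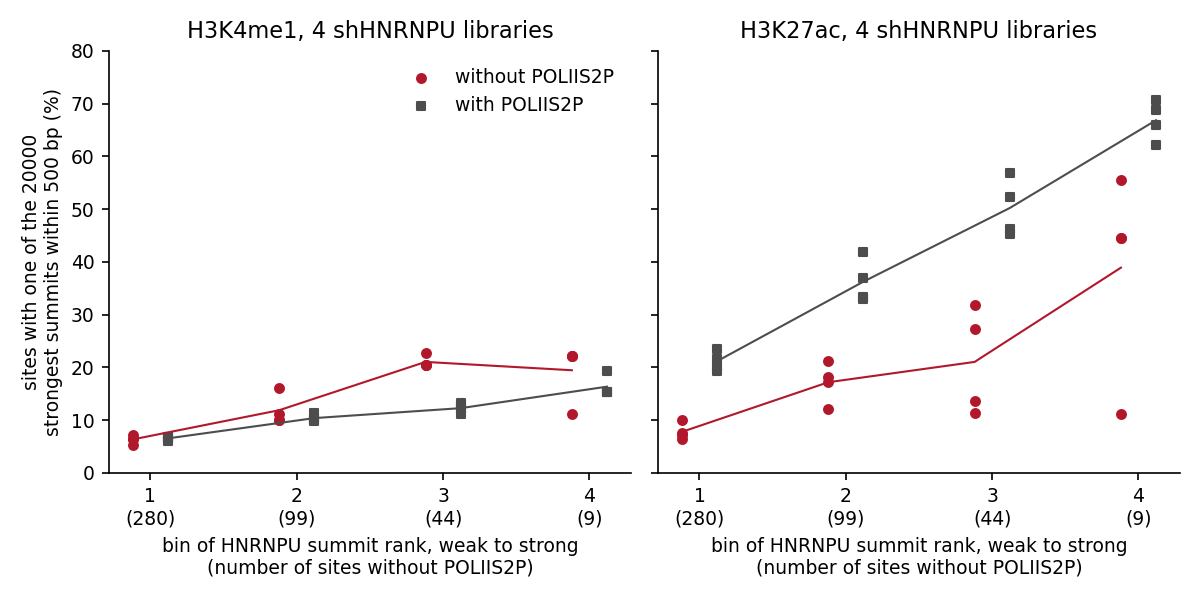
Share of sites, in percent, with 1 of the 20000 strongest summits within 500 bp in each of the 4 shHNRNPU libraries of H3K4me1 (left) and H3K27ac (right), by bin of HNRNPU rank from weak to strong. Circles are POLIIS2P-free sites, with their number in brackets, squares are sites with POLIIS2P, points are libraries and lines join means. The squares lie above the circles for H3K27ac in every bin, and below them for H3K4me1 in the third.

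The shares marked varied with the distance to POLIIS2P. Among the 238 sites over 10000 bp from a shLUC POLIIS2P summit, the 4 shHNRNPU libraries marked 12.1% ± 1.47 (SD, n = 4) with H3K4me1 and 8.82% ± 3.61 with H3K27ac. Among the 99 sites within 1000 bp, these shares were 4.80% ± 1.52 and 13.4% ± 3.34, and among the 95 sites between these limits 7.37% ± 1.49 and 18.2% ± 1.80. H3K4me1 was thus higher at the far sites than at the near ones in every library, at 11.3% to 14.3% against 3.03% to 6.06%. H3K27ac overlapped between these 2 groups, at 4.62% to 12.6% and 11.1% to 18.2%, and at the far sites it also overlapped with H3K4me1. With all deposited summits, H3K4me1 exceeded H3K27ac at every distance, at 75.8% against 27.6% at the far sites, 65.2% against 33.3% at the near ones and 54.5% against 37.9% between. The same order held at the sites with POLIIS2P, at 77.5% against 66.0%. The H3K4me1 lists were the longer ones, and the part of list length was not tested.

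Counting every deposited summit, a group of sites had H3K4me1 and no H3K27ac. In the shHNRNPU libraries, 89 of the 432 sites (20.6%) had H3K4me1 within 500 bp in 4 of 4 libraries and H3K27ac in 0 of 4, against 6.52% of the sites with POLIIS2P. The share was 25.2% (60 of 238) over 10000 bp from POLIIS2P and 14.9% (29 of 194) nearer. The reverse pattern was found at 9 sites (2.08%), against 2.40%, and both marks in all 8 libraries at 17 sites (3.94%), against 28.8%. The H3K27ac lists were shorter than the H3K4me1 lists, and their part in these counts was not tested.

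The 6 of these 89 sites with the strongest HNRNPU were at MYH10, ARRDC4, ELMO3, PCSK2, SPEF2 and TMTC2. At TMTC2, which encodes a protein mannosyltransferase of the endoplasmic reticulum, H3K4me1 ranked 97.8, 96.9, 92.5 and 97.1 within the 4 shHNRNPU lists. At ARRDC4 these ranks were 83.6, 41.2, 88.6 and 85.6, and at MYH10 23.3, 42.8, 41.0 and 78.2. H3K4me1 was therefore among the strongest summits at TMTC2 and at a middling rank at MYH10. PCSK2, a prohormone convertase, lay 278485 bp from POLIIS2P, with ranks of 9.54, 37.0, 49.4 and 61.0. ELMO3, an engulfment adaptor, lay at 571 bp, with ranks of 80.2, 94.7, 84.3 and 91.1. SPEF2, a sperm flagellar protein, had ranks of 10.5 to 36.1.

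Sites with H3K27ac but little H3K4me1 were also present among the strongest. EGR1 had no H3K4me1 summit in any of the 4 shHNRNPU lists, and H3K27ac in 3 of 4, with ranks of 66.1, 34.8 and 77.5. FOS, a further immediate-early gene, had H3K27ac at ranks of 92.8, 95.6, 96.2 and 99.3, H3K4me1 in only 1 of 4 lists at a rank of 4.05, and POLIIS2P at 1585 bp. At RAD23B, a nucleotide excision repair factor, H3K27ac ranked 98.3, 68.1, 99.3 and 98.8 and no list of H3K4me1 had a summit. WDR6 had H3K27ac ranks of 88.3, 69.0, 97.0 and 83.1 and H3K4me1 in 1 list at 14.3. In both shLUC libraries titled H3K4me1 these 4 genes had ranks from 68.9 to 97.5, and in those titled H3K27ac only WDR6 had a summit, at 1.74 and 3.50.

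At the other extreme, 24 sites (5.56%) had no summit of any of the 12 histone libraries within 500 bp, against 1.00% of the sites with POLIIS2P, and 14 (3.24%) had 1 in all 12, against 25.7%. The most common number was 6 of 12. The highest median ranks among the 14 belonged to CALCRL, MCUR1, ALCAM, the polo-like kinase gene PLK2 and RHOG. At CALCRL, 62759 bp from POLIIS2P, H3K4me1 ranked 90.2, 81.8, 93.0 and 94.5 and H3K27ac 90.6, 75.8, 99.0 and 97.8 in the shHNRNPU lists. MCUR1, a regulator of mitochondrial calcium uptake, had H3K27ac at 89.1, 89.1, 96.2 and 94.3. ALCAM had 90.3, 41.7, 96.7 and 70.1.

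**Figure D4:**
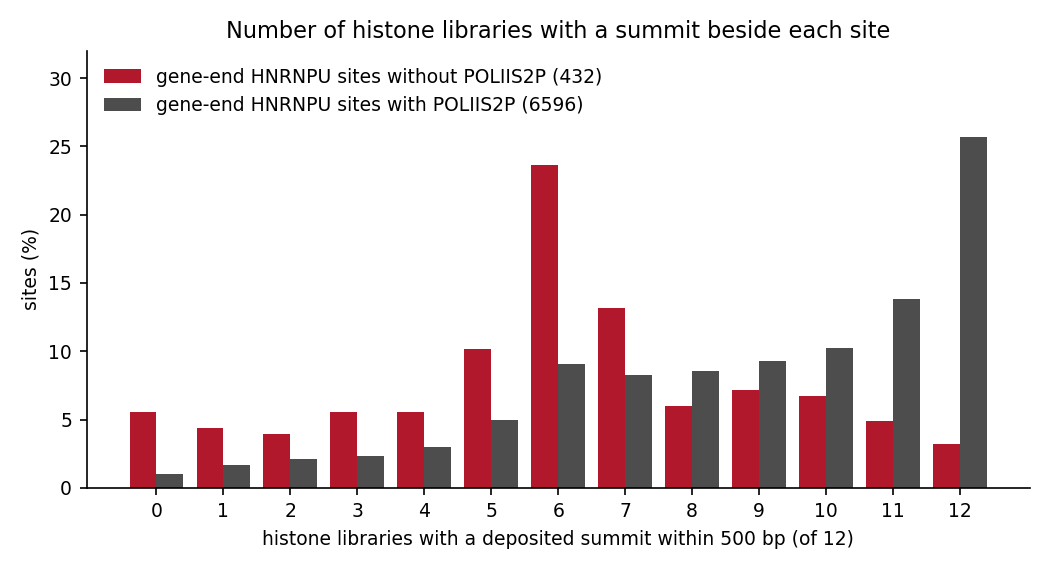
Share of sites, in percent, by the number of histone libraries (0 to 12) with any deposited summit within 500 bp. Red bars are the 432 POLIIS2P-free sites, highest at 6 libraries, and grey bars the 6596 sites with POLIIS2P, highest at 12 libraries with 25.7%.

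Of the 24 sites without a histone summit, 19 also had no POLIIS2P summit within 500 bp in the shHNRNPU#1 library, so that no other list had a summit there. The strongest were at RPL28, ZNF705G, GPD2, ANG and FGD4. At RPL28, a protein of the large ribosomal subunit, the 2 HNRNPU scores were 3.65 and 18.4, a wide gap between repeats. GPD2, the mitochondrial glycerol-3-phosphate dehydrogenase, had 6.48 and 5.59, and ANG, the ribonuclease angiogenin, 3.83 and 7.17. ZNF705G, with 7.92 and 4.92, belongs to a family of near-identical copies, between which reads may be split.

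The GPD2 and ANG sites lay beside tRNA genes, which RNA polymerase III transcribes. The GPD2 summit fell within TRA-CGC3-1 (chr2:156400769-156400840) and 360 bp from TRG-GCC2-2. The ANG summit lay 375 bp from TRY-GTA5-5 and 280 bp from TRP-TGG3-2. A tRNA gene was within 1000 bp of 2 of the 19 sites with no other summit, of 4 of all 432 sites (0.926%) and of 26 of the 6596 sites with POLIIS2P (0.394%). The other 2 were at HMGN4, 2 bp from TRR-ACG1-2, with HNRNPU scores of 4.28 and 9.66 and weak histone summits in 2 of 12 libraries, and at CTNNA3, 322 bp from TRS-TGA1-1, with scores of 7.35 and 9.69 and summits in 5 of 12. Small RNA genes of any class lay within 1000 bp of 9 sites (2.08%), against 1.86%. Among the rest, FKBP1A, FAM114A1 and RPL8 lay beside microRNA genes and RPL3 beside a small nucleolar RNA gene.

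No difference in histone marks between shHNRNPU and shLUC cells passed a test at the POLIIS2P-free sites. The question was whether H3K4me1 or H3K27ac differed between the 4 shHNRNPU and 2 shLUC libraries, for which exact two-sided permutation over libraries has 15 assignments and cannot go below 0.0667. With the names exchanged, H3K4me1 marked 9.38% ± 1.08 (SD, n = 4) of the sites in shHNRNPU cells and 9.26% ± 1.31 (SD, n = 2) in shLUC cells, higher by 0.116 percentage points (adjusted p = 1, exact permutation p = 1). H3K27ac marked 11.9% ± 2.88 and 12.6% ± 2.46, so that shHNRNPU minus shLUC was -0.694 points (exact permutation p = 0.733, adjusted p = 0.88). By title, the difference was -3.24 points for H3K4me1 (exact permutation p = 0.133, adjusted p = 0.210) and 2.66 points for H3K27ac (exact permutation p = 0.267, adjusted p = 0.367). For either antibody, which the names cannot affect, it was -0.463 points (20.3% against 20.7%, exact permutation p = 0.8, adjusted p = 0.88). Each pair of groups overlapped, except that for H3K4me1 by title the highest shHNRNPU library equalled the lowest shLUC library, both 10.9%. With so few libraries, these p-values cannot show that the marks were alike.

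The 2 sets of sites were also compared for their response. The difference between POLIIS2P-free sites and sites with POLIIS2P, for either antibody, was smaller in shHNRNPU than in shLUC cells by 4.19 points (-29.0 against -33.2), with an exact permutation p of 0.0667 and an adjusted p of 0.122. This is the smallest p that the design allows, and with all deposited summits the difference turned to -0.646 points.

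Few single sites changed in all libraries. A change was counted where a mark was present in all libraries of 1 condition and none of the other. With the names exchanged, H3K4me1 was lost by this count at 2 sites, BANK1 and MYPN, where 0.353% of all HNRNPU sites did so, and gained at 0 sites, against 0.317%. H3K27ac was lost at 3 sites, PLRG1, PARG and PRSS27, against 1.14% of all HNRNPU sites, and gained at 1 site, against 0.293%. As shares of the 432 sites these counts are 0.463%, 0%, 0.694% and 0.231%, near those of all HNRNPU sites and resting on 0 to 3 sites each. PLRG1, a splicing factor, had H3K27ac ranks of 95.9 and 89.6 in the shLUC lists titled H3K4me1, and in the shHNRNPU lists of H3K27ac ranks of 30.7 and 70.4 in 2 of 4. PARG, which degrades poly(ADP-ribose), had 80.9 and 83.3, and 54.8 and 26.6 in 2 of 4.

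By title, the counts followed the conflict of names. H3K4me1 was lost at 29 of the 432 sites (6.71%), against 18.5% of all HNRNPU sites, and gained at 17 (3.94%), against 6.15%. H3K27ac was lost at 17 (3.94%), against 6.03%, and gained at 14 (3.24%), against 12.9%. With all deposited summits the balance turned. H3K4me1 was lost at 17 sites (3.94%), against 2.62% of all HNRNPU sites, and gained at 121 (28.0%), against 13.4%. H3K27ac was lost at 116 (26.9%), against 13.7%, and gained at 16 (3.70%), against 2.83%. EGR1, WDR6, TBRG1, FOS and MED7 were the strongest of the 29, and FSTL5, ELMO3, TMTC2, INHBA and CARTPT of the 17 losses of H3K27ac. At INHBA, the βA subunit of inhibin and activin, the shLUC lists titled H3K27ac had ranks of 98.0 and 94.0 and the shHNRNPU lists of H3K4me1 94.8, 92.9, 97.5 and 97.8. At CARTPT, a neuropeptide precursor, these were 91.5 and 95.9, and 91.5, 89.5, 90.5 and 95.2. At such sites the titled loss of H3K27ac coincided with equal ranks in the H3K4me1 lists, and the 2 cannot be told apart while the names are in conflict.

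POLIIS2P was present at a part of the sites in the library that the choice had not used. Of the 432 sites, 128 (29.6%, 95% Wilson interval 25.5 to 34.1) had a deposited POLIIS2P summit within 500 bp in shHNRNPU#1 cells, whereas the share over all HNRNPU sites without shLUC POLIIS2P was 13.8%, and sites with POLIIS2P had 92.8%. The interval covers counting error only. With 1 library there was no test between hairpins. The same was therefore asked of each shLUC library, by requiring absence from the other 2 POLIIS2P lists. The share was 34.2% (158 of 462) for the first shLUC repeat and 24.4% (98 of 402) for the second, so that the shHNRNPU#1 value lay between the 2 shLUC values. Among the 20000 strongest summits, the shHNRNPU#1 share was 6.02% at POLIIS2P-free sites and 68.8% at sites with POLIIS2P.

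POLIIS2P in shHNRNPU#1 cells was most frequent near the limit, at 44.4% of the sites within 1000 bp of a shLUC summit, 34.7% of those up to 10000 bp and 21.4% of those beyond. The highest ranks in the shHNRNPU#1 list were at RAB1B (98.6), TMEM120A (98.5), RAD23B (95.4), P3H4 (94.1) and CCN2 (93.7), whose nearest shLUC summits lay 849, 767, 1044, 739 and 975 bp away. RAB1B is a small GTPase of traffic from the endoplasmic reticulum to the Golgi, and P3H4 a component of the collagen-modifying prolyl hydroxylase complex. ARRDC4, with no shLUC summit within 686923 bp, had a POLIIS2P summit at a rank of 77.0.

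By gene class, the sites were spread thinly. Of 19126 protein-coding genes on chromosomes 1 to 22, 431 (2.25%) had a POLIIS2P-free site and 33.6% a site with POLIIS2P. Cytosolic ribosomal protein genes had such a site at 5 of 79 (6.33%), among them RPL28 and RPL3, and RNA polymerase and Mediator genes at 5 of 62 (8.06%). Histone genes, listed by symbol and with variants such as H2AJ included, had 4 of 80 (5.00%). Zinc finger genes had 11 of 533 (2.06%), solute carriers 11 of 372 (2.96%) and TMEM and CCDC genes 10 of 354 (2.82%), near the share of all genes. Developmental regulators had only SOX5 (1 of 184) and splicing factors only U2AF1L4 (1 of 73). Mitochondrial ribosomal proteins (0 of 77), clustered protocadherins (0 of 53), complex I (0 of 44) and pluripotency genes (0 of 16) had none. Olfactory receptor genes, which are silent outside sensory neurons, had 2 of 391 (OR51D1 and OR2L13) and no site with POLIIS2P. Keratin and keratin-associated protein genes had 1 of 152 (KRTAP5-2). These lists hold few sites each and were counted without a test.

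Within these classes the marks differed from gene to gene. RPL3, 3163 bp from POLIIS2P, had H3K27ac ranks of 89.2, 90.2, 50.7 and 70.2 in the shHNRNPU lists, and RPL28 had no H3K27ac summit. Among Mediator genes, MED7 had HNRNPU scores of 11.8 and 13.6 and both marks in all 12 histone lists, whereas MED13L had scores of 3.897 and 4.06 and no H3K4me1 in shHNRNPU cells. CCDC39, a ciliary axoneme protein, had HNRNPU scores of 12.2 and 13.4 at 45601 bp from POLIIS2P and a histone summit in only 1 of 12 lists, at a rank of 2.60. SLC7A11, the cystine transporter, had scores of 4.43 and 6.62. OR2L13 had 2.07 and 2.16, among the weakest, and no other summit.

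Gene starts beside POLIIS2P-free sites were poorer in CpG than those beside sites with POLIIS2P. Promoter windows of 300 bases were found for all 337 starts beside POLIIS2P-free sites, 5204 beside sites with POLIIS2P and 15101 of all genes. The median observed over expected CpG ratio was 0.788, against 0.851 and 0.767, and the ratio was under 0.6 in 23.1%, 11.0% and 33.7% of the windows. The median GC content was 63.3%, 65.7% and 63.0%. Within the POLIIS2P-free set, 27.03% of the starts over 10000 bp from POLIIS2P and 18.4% of the nearer ones had a ratio under 0.6.

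**Figure D5:**
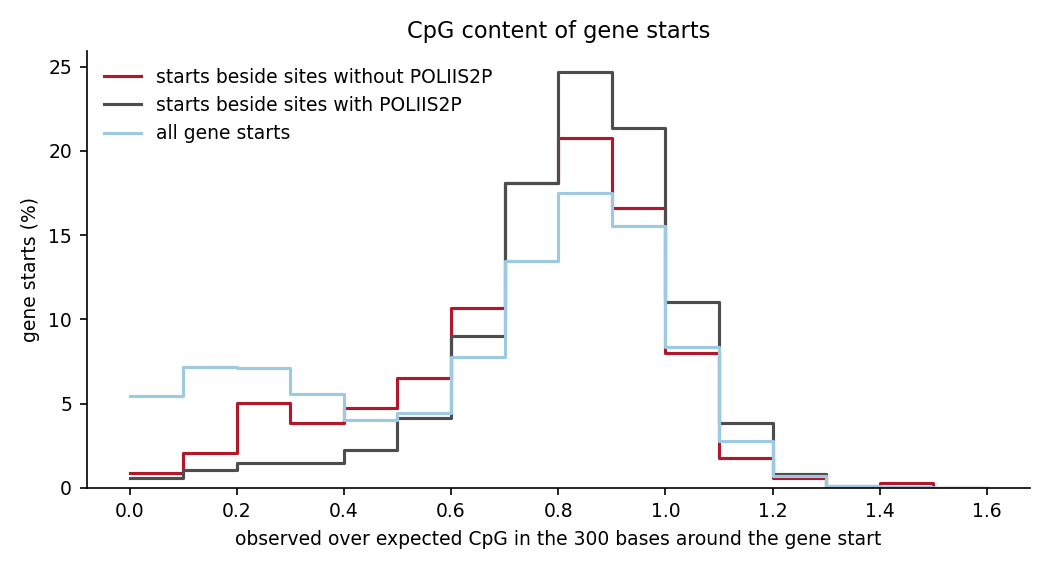
Distribution of the observed over expected CpG ratio in 300-base windows around gene starts, in percent of starts, for 337 starts beside POLIIS2P-free sites (red), 5204 beside sites with POLIIS2P (grey) and all 15101 starts (blue). The red line runs between the other 2 below a ratio of 0.4 and peaks at the same place as the grey line.

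Motif shares also differed between the sets. TATAAA, the core of the TATA box, was found in 9.50% of the windows beside POLIIS2P-free sites, 4.46% beside sites with POLIIS2P and 9.71% of all. GGGCGG, bound by SP factors, was found in 67.7%, 74.8% and 58.9%. CCGGAAG, an ETS motif, was found in 14.5%, 22.8% and 14.4%, and CCAAT in 33.8%, 40.5% and 36.0%. CACGTG, the E-box printed for ARRDC4 and WDR6, was found in 6.23%, 10.6% and 8.77%. For TATAAA and CCGGAAG the POLIIS2P-free starts were thus close to all genes. The other 5 motifs were in 0.297% to 5.04% of the POLIIS2P-free windows. A match is a run of letters and does not show that a factor was bound.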

How the data were processed

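The paper supplied with the series describes other experiments and was used for style alone. Per the labels' processing notes, the authors used cutadapt, Bowtie2, SAMtools, MACS2 and deepTools with the build hg38; versions, the control library and the peak-calling threshold are not given in the sources used here. The authors deposited a summit list per library, without pooling, whose score is a −log10 p- or q-value (which of these is not stated), lowest at 2.00 in histone and 1.30 in HNRNPU and POLIIS2P lists, and 1 list of 48095 HNRNPU regions, whose deposited score column was not used. Depth is unknown, so weak summits may be missed.

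Scripts in Python 3.11.15 (numpy 2.4.6, pandas 2.3.3, scipy 1.17.1, matplotlib 3.10.9) matched summits to RefSeq genes of GRCh38.p14 on chromosomes 1 to 22. A strand was used for 15101 of 19126 genes, those with a promoter window in the reference. Sites were joined, and marks counted, as stated in the report. Ranks are percentiles of score within a list. Samples were grouped by title. Shares were compared over libraries with exact permutation tests, adjusted over 11 tests, and the scripts were tested on simulated data. Intervals are 95% Wilson intervals. Repeats shared 2.15% to 8.70% of summit bases, so none was a copy of another. Differences in rank between repeats correlated between -0.0306 and 0.0173 across hairpins, so the ranks gave no sign of pairing by repeat number. Whether equal repeat numbers shared a culture or batch was not tested.

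The sites, gene lists, motifs and the rule for named genes were chosen with earlier results of these data known. The rule took the 10 sites with the strongest HNRNPU and the 5 strongest without another summit. Among sites with a summit in all 12 histone lists, it took the 5 with the highest median histone rank. It also took up to 5 per direction that changed between hairpins, the 5 strongest for POLIIS2P in shHNRNPU#1 cells and those at each threshold. The last were up to 4 per gene list, 5 with several genes and 5 beside small RNA genes. The counts over the 4 shHNRNPU libraries, the 6 sites named for H3K4me1 without H3K27ac, the comparison of the tRNA genes and the immediate-early list were added after values were seen. Some named sites are not reported here.

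Alternatives varied the number of summits used, the distances, the minimum HNRNPU score, the HNRNPU list, the hairpin, the block and each library left out.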

Additional observations from a re-analysis of the deposited data

How the results depend on the processing

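For the 11 tested results, 274 alternative values were computed, of which 201 kept their direction and their side of the threshold. For the 6 differences between hairpins, no alternative could reach an exact p under 0.05. Their side of the threshold was therefore fixed in advance, and only their direction could change. The POLIIS2P share, which has no test, had 15 alternatives, of which 6 stayed within the 95% Wilson interval of the main value, 6.02%. By title, the shHNRNPU minus shLUC difference turned to 32.8 percentage points for H3K4me1 and to -37.3 for H3K27ac with all deposited summits, where list length moved with the name. With the names exchanged, H3K4me1 turned to -0.174 with the 10000 strongest summits and to -0.463 with shHNRNPU#1 alone, H3K27ac to 1.62 and either antibody to 1.74 with shHNRNPU#2 alone, and the difference in response to -0.646 with all deposited summits. The POLIIS2P share in shHNRNPU#1 cells was 6.02% as the main value, 29.6% with all summits, 2.31% with 10000, 14.1% with 40000, 11.8% for a mark within 1000 bp, 3.904% without POLIIS2P within 1000 bp and 14.1% at HNRNPU scores of at least 5.

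The H3K4me1 deficit against sites with POLIIS2P (names exchanged) turned to 2.47 points at HNRNPU scores of at least 5 and to 3.59 within HNRNPU bins. It lost its p with no POLIIS2P within 1000 bp (-0.375), gene ends within 500 bp (-0.0881) or starts only (-1.69). The p was also lost with the shHNRNPU#1 and shLUC libraries (-1.70), the shHNRNPU#2 and shLUC libraries (-1.46) or all shHNRNPU libraries without shLUC (-2.21). The 3 last settings have 4 libraries, whose smallest exact p is 0.125, and gave -34.8, -35.4 and -32.7 for H3K27ac and -31.0, -31.2 and -29.0 for either antibody. By title they gave -20.0, -19.8 and -2.21 for H3K4me1 and -16.5, -17.1 and -32.7 for H3K27ac. The settings with shLUC libraries carry the conflict of names in these values by title. Also by title, H3K4me1 gave -13.0 with no POLIIS2P within 1000 bp, -10.0 at scores of at least 5 and -5.79 within bins, and H3K27ac gave -21.6, -21.0 and -13.5 there, -23.0 for gene ends within 500 bp and -23.5 for starts only. Other causes of these changes were not tested.

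With 1 library left out, the shHNRNPU minus shLUC difference ranged from -0.810 to 1.04 for H3K4me1 and from -2.43 to 1.04 for H3K27ac with names exchanged, from -9.19 to -1.50 and from 1.62 to 7.11 by title, and from -1.98 to 0.347 for either antibody; the difference in response ranged from 2.07 to 6.32. Against sites with POLIIS2P the ranges were -4.20 to -1.54 and -34.8 to -31.5 with names exchanged, -16.4 to -9.02 and -26.4 to -19.7 by title, and -31.4 to -28.7 for either; 5 libraries cannot reach an exact p under 0.05. The POLIIS2P share ranged from 3.50% to 13.2%. With the replicate block, the 6 differences between hairpins kept their values (0.116 for H3K4me1 with names exchanged, 9 assignments). No call changed, and with 9 assignments none could.

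The number of POLIIS2P-free sites rested on single libraries. It was 845 and 721 without the first or second POLIIS2P shLUC library and 1130 and 1200 without the first or second HNRNPU library, and 333 with no POLIIS2P within 1000 bp, 263 with repeats within 100 bp, 128 at scores of at least 5, 453 with the series-wide list, 320 for ends within 500 bp and 341 for starts only. Absence from a list is no proof of absence from the genome at an unknown depth.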

Other observations

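Immediate-early genes, which respond within minutes to serum or stress, included EGR1, CCN2 and FOS among the POLIIS2P-free sites with a strong HNRNPU summit, and a list of 42 such genes was drawn up after this was seen, so its counts are no independent evidence. A POLIIS2P-free HNRNPU site lay at 6 of the 42 (14.3%), against 2.25% of all protein-coding genes: FOS, EGR1, CCN2, DUSP6, DUSP10 and PLK2. A site with POLIIS2P lay at 19 (45.2%, against 33.6% of all genes), among them JUN, MYC, DUSP1 and also CCN2, which had 1 site of each kind. The POLIIS2P-free summits at EGR1, CCN2, FOS and DUSP6 lay 571, 975, 1585 and 1516 bp from the nearest shLUC POLIIS2P summit, those at DUSP10 and PLK2 26487 and 122465 bp. In the 4 shHNRNPU libraries, H3K27ac was found at FOS and PLK2 in 4, at EGR1 and CCN2 in 3, at DUSP10 in 2 and at DUSP6 in 0, and H3K4me1 in 4 at CCN2 and PLK2, in 1 at FOS, DUSP6 and DUSP10 and in 0 at EGR1.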
